A study of Mus musculus with 1152 samples.

Results

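Mature oligodendrocytes of the adult mouse brain with much transcript of Il33, the gene of the cytokine interleukin 33, were compared with those holding little of it. The cells were single-cell wells with at least 50000 reads that passed a gate on CPM (counts per 1e+06 reads): Mog at least 800 CPM, Mag at least 1000 CPM, Enpp6 under 500 CPM, Pdgfra under 100 CPM and mitochondrial transcripts under 5% of reads. Mog and Mag encode myelin proteins, Enpp6 marks newly forming oligodendrocytes and Pdgfra marks their precursors. Of 1152 wells, 857 had enough reads and 197 passed the gate, 70 in the well set named 1025s_182s, 51 in 600s_182s and 76 in 613s. Within each set the gated wells were ranked by Il33 CPM, and divided into a high, a middle and a low group of near equal size, each pooled over the sets. The members were thus chosen by their measured levels of the gate genes and of Il33. This gave 65 wells of high Il33, 67 in the middle and 65 of low Il33, so 130 wells entered the comparison.

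The wells hold fluorescent cells sorted from adult C57BL/6 brain of both sexes and read by SMART-seq2, which makes full-length cDNA from a cell in its own well. The cells came from Pdgfra-H2BGFP mice, in which a nuclear green protein follows the Pdgfra gene, and from Tagl-CREERT2;Ai14 mice, in which tamoxifen lets a recombinase turn on a red protein. Before sorting, vascular fragments had been pulled down with beads against CD31, an endothelial surface protein, and the oligodendrocytes described here were recovered from that preparation. No label ties a well to a mouse line or animal, so all wells are 1 sample, line and animal cannot be told apart from the groups, and every difference below is a size without a replicate check.

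Interleukin 33 is a nuclear cytokine of the interleukin 1 family that is released from damaged cells and is sensed through the receptor chain encoded by Il1rl1 together with that encoded by Il1rap. In the brain and spinal cord, oligodendrocytes and astrocytes are known sources of it. Mature oligodendrocytes wrap axons in myelin, a membrane rich in cholesterol and galactolipids, and pass from newly forming through myelin-forming to mature states with partly different transcripts.

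The promoters of the ranking gene, of the gene whose level followed it most closely (Glul, glutamine synthetase) and of the named gene with the lowest ratio (Prom1, the membrane protein prominin 1) are shown as a view of the sequence around their starts. RefSeq lists separate starts for Il33, and both windows are given. Sequences are those of RefSeq on GRCm38.p6, 300 bases long, written 5′ to 3′ on the gene's strand. Capitals mark CAGCTG, an E-box form of the kind bound by basic helix-loop-helix factors such as Olig2.
Il33, first start, chr19:29924863-29925162, plus strand: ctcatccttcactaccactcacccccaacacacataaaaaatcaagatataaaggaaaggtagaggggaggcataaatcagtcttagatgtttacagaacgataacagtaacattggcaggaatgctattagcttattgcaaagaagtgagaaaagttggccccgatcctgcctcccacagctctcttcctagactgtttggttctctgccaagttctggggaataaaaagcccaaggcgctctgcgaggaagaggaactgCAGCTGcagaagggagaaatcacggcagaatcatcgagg
Il33, second start, chr19:29945540-29945839, plus strand: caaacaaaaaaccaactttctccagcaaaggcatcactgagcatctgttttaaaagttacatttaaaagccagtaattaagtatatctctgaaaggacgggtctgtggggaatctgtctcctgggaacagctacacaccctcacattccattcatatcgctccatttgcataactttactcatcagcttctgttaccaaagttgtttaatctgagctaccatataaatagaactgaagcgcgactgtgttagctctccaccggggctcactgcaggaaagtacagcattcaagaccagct
Glul, chr1:153899679-153899978, plus strand: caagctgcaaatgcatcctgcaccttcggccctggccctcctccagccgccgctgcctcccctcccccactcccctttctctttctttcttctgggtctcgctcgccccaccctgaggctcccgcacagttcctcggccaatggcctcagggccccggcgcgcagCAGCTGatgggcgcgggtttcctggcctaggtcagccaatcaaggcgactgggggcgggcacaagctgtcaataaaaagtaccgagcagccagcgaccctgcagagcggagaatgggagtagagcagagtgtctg
Prom1, chr5:44101687-44101986, minus strand: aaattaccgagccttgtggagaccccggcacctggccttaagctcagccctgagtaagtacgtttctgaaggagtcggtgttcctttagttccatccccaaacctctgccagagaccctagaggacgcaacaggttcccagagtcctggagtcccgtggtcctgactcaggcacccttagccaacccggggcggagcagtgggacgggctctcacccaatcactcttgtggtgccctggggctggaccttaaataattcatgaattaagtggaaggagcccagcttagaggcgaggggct

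CAGCTG, which reads the same on both strands, began 12 bases after the first Il33 start and 85 bases before the Glul start. Neither the second Il33 window nor the Prom1 window shown holds these letters, nor do any of the 4 windows hold ACAAAG or ACAATG, core letters of SOX-type sites searched on both strands. CAGCTG was in 16.3% of all 32851 promoter windows of the table, in 14.7% of 9320 windows of genes tested here, in 16.4% of 268 windows of genes higher with high Il33 in every well set and in 17.6% of 545 windows of genes lower in every well set. ACAAAG or ACAATG was in 28.6%, 19.5%, 23.1% and 17.6% of the same windows. These shares describe letters only.

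Il33 chose the wells, so its own values are a description. The gene lies on chromosome 19 from 29925114 to 29960718 on the plus strand of GRCm38. In the high group Il33 ranged from 436 to 5112 CPM with a median of 2037 CPM. In the middle group it ranged from 4.49 to 1859 CPM with a median of 1049 CPM. In the low group it ranged from 0 to 707 CPM with a median of 8.29 CPM, and 10 of the 65 wells had no Il33 read. The groups overlapped across sets, since ranks were taken within each set and the sets differed in level.

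In set 600s_182s the last well of the high group had 436 CPM and the first of the middle group 328 CPM, while 4.49 and 4.46 CPM lay on either side of the lower boundary. The boundaries in 1025s_182s fell between 1605 and 1529 CPM and between 683 and 682 CPM. Those in 613s fell between 1916 and 1859 CPM and between 906 and 707 CPM. The low group of 613s therefore held wells with a good deal of Il33, at a median of 294 CPM, against 4.37 CPM in 1025s_182s and 0.968 CPM in 600s_182s. Near the gate, the lowest Mog value inside was 898 CPM, the lowest Mag value 1106 CPM, the highest Enpp6 value 479 CPM and the highest Pdgfra value 81.5 CPM.

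**Figure D1:**
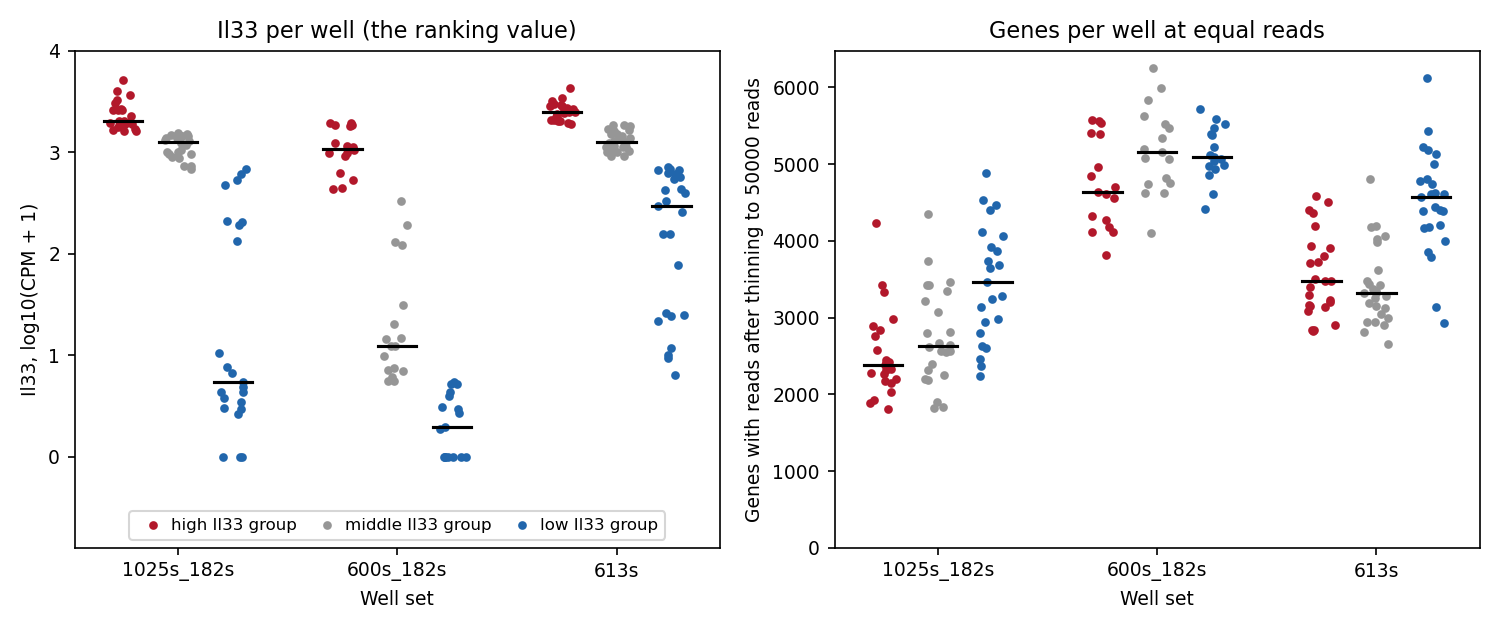
Il33 level (left, log10 of CPM + 1) and number of genes with reads after thinning each well to 50000 reads (right) in the gated wells of each set, 1 point per well, coloured by Il33 group, with a bar at the median. The low group of every set sits above its high group in number of genes, at medians of 3469 against 2379, 5095 against 4642 and 4570 against 3470.

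Depth and the number of genes differed between the groups. Median reads per well were 321803 in the high, 422296 in the middle and 449604 in the low group. The order was not the same in each set: in 613s the medians were 371291, 452088 and 348793. After thinning every well to 50000 reads the median number of genes with reads was 3400, 3347 and 4441, and the median mitochondrial share was 1.87%, 1.64% and 1.48%. No gene exceeded 5679 reads in any well of the table. The CPM of several abundant genes was lower in deeper wells: over the 197 gated wells, the mean of the Spearman correlations within sets between reads and CPM was −0.80 for Mbp, −0.60 for Trf and −0.36 for Il33 itself, but −0.11 for Mobp, which had 0.18 within 1025s_182s. CPM contains the reads in its denominator, so these correlations are descriptions. How depth and gene number act on the ratios below was examined by ranking Il33 separately among the shallower and the deeper wells of each set, split at the median depth, which gave depth-balanced groups (62 wells a group, median reads 388318 and 401698, but still 3373.5 and 4424.5 genes at equal reads) and by averaging the ratios of the wells with few and with many genes, split at the median. Both settings were added after seeing the data.

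Across the 9752 genes other than Il33 with at least 10 CPM in either group, 1054 (10.8%) were at least 2-fold higher and 1439 (14.8%) at least 2-fold lower in the high group. All ratios are log2 of the CPM of summed reads with 1 CPM added to each side, and the median over all genes was −0.06. A stricter count asked for at least 1.5-fold in the same direction within each of the 3 sets, and 273 genes (2.8%) were higher and 589 (6.04%) lower by it. The summed CPM of the middle group lay between those of the other groups for 197 of the 273 (72.2%) and 460 of the 589 (78.1%), against 39.5% of all genes tested. The 273 and 589 were chosen for a wide gap between those groups, at median ratios of 1.75 and −1.80. A middle value falls inside a wide gap more easily, so these shares are a description and no sign of a graded relation. In the depth-balanced groups, which share 51 of 62 high and 53 of 62 low wells with the groups above, 156 of the 273 and 366 of the 589 again passed in every set. Since most wells are shared, that count is no independent check.

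**Figure D2:**
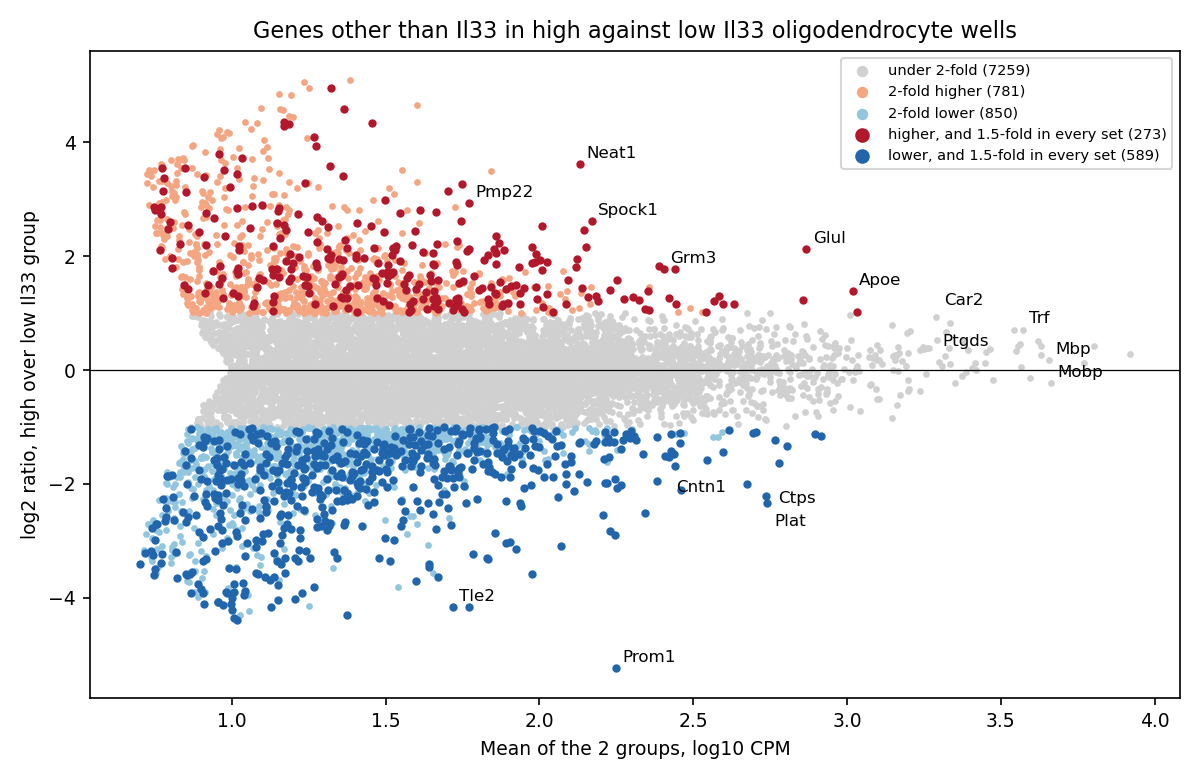
Log2 ratio of the high over the low group against the mean level of both groups (log10 CPM), 1 point per gene, for 9752 genes. Large ratios sit at low levels; among the abundant genes at right, Mbp and Mobp lie near 0 and Glul, Apoe, Plat and Ctps lie apart.

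The gene whose level followed Il33 most closely was Glul, which makes glutamine from glutamate and ammonia. Over 197 wells the mean within-set Spearman rho was 0.55, the highest among 4978 genes with reads in at least 50% of the wells. Glul ranged from 20.9 to 3580 CPM with a median of 1145 CPM in the high group, from 0 to 2862 CPM with a median of 831 CPM in the middle group, and from 1.06 to 2143 CPM with a median of 181 CPM in the low group. The ranges overlap, but 61 of 65 high wells were above the median of the low group and 6 of 65 low wells above that of the high group. From summed reads the level was 1202 CPM (95% interval 1188 to 1216) against 275 CPM (269 to 280), a log2 ratio of 2.13. Within 1025s_182s, 600s_182s and 613s the log2 ratio was 1.61, 3.53 and 2.30, and with depth-balanced groups it was 1.88. These intervals cover counting error only, since PCR copies of a molecule were not counted apart. Glul is also a gene of astrocytes. The 10 astrocyte markers summed to 459 CPM in the high and 430 CPM in the low group, with 4 of the 8 at 10 CPM above 0 and a median ratio of 0.15. Among them Sox9 was higher (2.89) and Aqp4 lower (−2.50). Their part in Glul was not tested.

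Next came Qdpr (rho 0.55), the dihydropteridine reductase that regenerates tetrahydrobiopterin. Its median per well was 2681, 2370 and 1784 CPM in the high, middle and low groups and its log2 ratio 0.66, under the 2-fold call. Mir8114 and Teddm2 (rho 0.54 each) overlap the start of Glul on chromosome 1, where Glul begins at 153899944 and Teddm2 ends at 153900228, so reads can be shared and they are not separate evidence. Sec11c (rho 0.52), a subunit of the signal peptidase complex, was higher at 517 against 223 CPM, a log2 ratio of 1.21. In Sec11c, 63 of 65 high wells lay above the low median. No label says what the wells of a set share beyond their name. Like that of Il33, the CPM of these genes also fell with reads. The mean rho with reads was −0.28 for Glul, −0.66 for Qdpr and −0.33 for Sec11c. The part of depth in this likeness was not tested.

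At the opposite end, by a rule added after seeing the data, stood Rnf122 (rho −0.56), a ring-finger ubiquitin ligase. Rnf122 ranged from 0 to 670 CPM (median 11.0) in the high group, from 0 to 1394 CPM (median 111) in the middle group, and from 0 to 943 CPM (median 406) in the low group. Of the low wells, 60 of 65 exceeded the median of the high group, and the log2 ratio was −2.11. Igsf8 (rho −0.52), a tetraspanin partner of the immunoglobulin superfamily, was lower at 511 against 1134 CPM. Cntn1 (rho −0.49), Marcksl1 and Plat (rho −0.47 each) followed and are described with their groups.

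**Figure D3:**
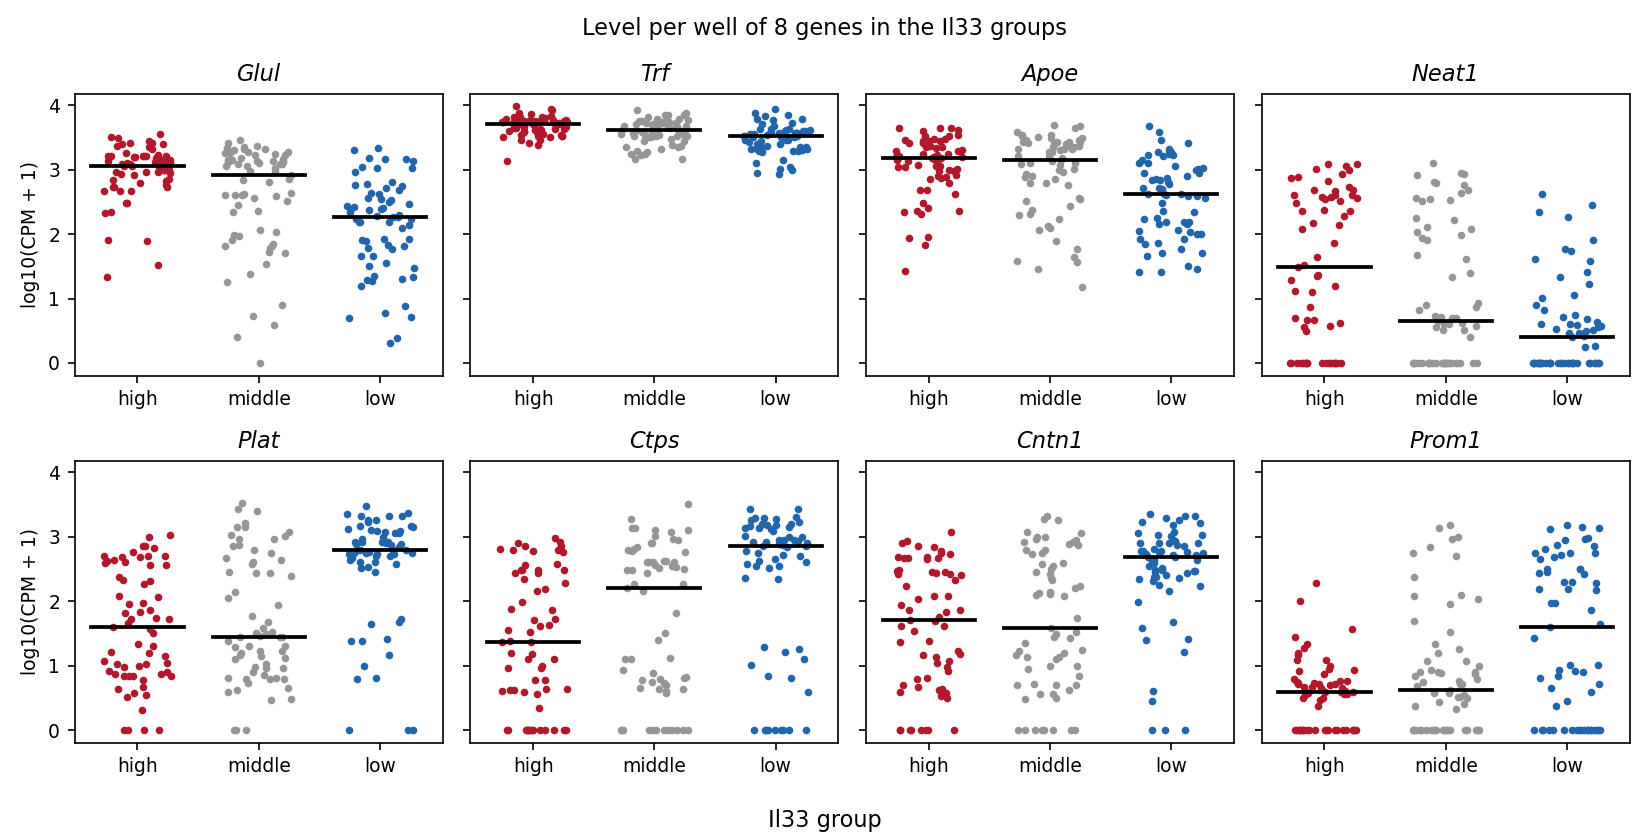
Level per well, as log10 of CPM + 1, of 8 genes in the high, middle and low Il33 groups, 1 point per well with a bar at the median. Glul and Apoe sit lower in the low group; Plat, Ctps and Cntn1 split into wells near 0 and wells above 100 CPM, with most low wells in the upper group.

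Compact myelin proteins differed little. Of the 21 genes in the myelin protein list, 2 were called higher and none lower, beside 10.8% and 14.8% of all genes. The list's median log2 ratio was 0.12. Mbp, myelin basic protein, had a log2 ratio of 0.17, Cnp, an enzyme of myelin's cytoplasmic face, 0.12, Opalin, a membrane protein of mature cells, −0.02, and Mobp, a basic protein of compact myelin, −0.23. The called genes were Gpm6b, a proteolipid family protein, at 1450 against 712 CPM (log2 ratio 1.03), and Pmp22, a tetraspan protein best known from peripheral myelin, at 106 against 12.9 CPM (2.94). In Gpm6b 60 of 65 high wells exceeded the low median. Pmp22 was uneven, with 22 high and 32 low wells at 0 and a median of 4.67 and 1.54 CPM.

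Of 27 genes of the late mature state, 26 reached 10 CPM. Of these, 6 were higher (5 in every set), none was lower and 20 were not called. Among all genes 10.8% were higher and 2.8% higher in every set. A ratio above 0 was found in 25 of the 26, Gsn, gelsolin, being the exception (−0.37), and the median was 0.69 (0.54, 1.18 and 0.50 within the sets). Over all genes tested 46.4% had a ratio above 0. The list's median was 0.66 when averaged over wells with few and with many genes. The called members were Glul, Grm3, Jph4, Hapln2, Pex5l and Pcolce2, of which Pcolce2 was −0.47 within 1025s_182s.

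Grm3, a metabotropic glutamate receptor, ranged from 0 to 1538 CPM (median 180) in the high group and from 0 to 706 CPM (median 2.98) in the low group, for a log2 ratio of 1.77. Reads were present at equal depth in 66.2% of high and 43.1% of low wells. Hapln2, a link protein of the nodal matrix, was at 269 CPM in the high, 370 CPM in the middle and 89.2 CPM in the low group, so the middle group was the highest. Pex5l, a regulator of HCN channels, had a median per well of 417 against 113 CPM and a log2 ratio of 1.31. Jph4, a junctophilin that joins plasma membrane and endoplasmic reticulum, had a ratio of 1.25.

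Several abundant members came near the 2-fold line without passing it. Trf, transferrin, the iron carrier made by oligodendrocytes, ranged from 1352 to 9649 CPM (median 5108) in the high group, from 1468 to 8326 CPM (median 4094) in the middle group, and from 849 to 8689 CPM (median 3292) in the low group. Its log2 ratio was 0.71 and 58 of 65 high wells exceeded the low median. Apod, a lipid-binding apolipoprotein, had a ratio of 0.97, Car2, carbonic anhydrase 2, one of 0.93, and Ptgds, prostaglandin D2 synthase, one of 0.82. With depth-balanced groups Trf had 0.63, Apod 0.92, Car2 0.82 and Ptgds 0.70. Of 11 genes of another mature state, named for Klk6 and Hopx, 5 reached 10 CPM in the high or low group. Of those, 1 was lower and 1 higher, beside 14.8% and 10.8% of all genes. Klk6 was at 1.11, 39.9 and 9.21 CPM in the high, middle and low groups and Hopx at 0.616, 0.765 and 1.22 CPM. Fam214a was lower in every set, at 65.3 against 376 CPM (−2.51), and Cd59a, a complement inhibitor, higher at 14.0 against 3.42 CPM (1.76), though it had −0.36 within 1025s_182s. S100b, a calcium-binding protein, had 0.31, Anxa5, annexin A5, 0.36 and Egr2, a zinc-finger factor, 0.98.

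Of 27 genes of newly forming and myelin-forming cells, 23 reached 10 CPM, 7 were lower (6 in every set) and none was higher, where 14.8% of all genes were lower and 6.04% lower in every set. The median was −0.20 (−0.26, −0.60 and −0.12 within 1025s_182s, 600s_182s and 613s), where all genes of 613s had −0.11, and 14 of 23 ratios were below 0, against 53.6% of all genes. Ctps, the enzyme that makes CTP, ranged from 0 to 946 CPM (median 22.4) in the high group, from 0 to 3190 CPM (median 160) in the middle group, and from 0 to 2705 CPM (median 721) in the low group. Its log2 ratio was −2.22, and 5 of 65 high wells exceeded the low median. Gpr17, a receptor gene of differentiating precursors, was at 62.0 against 192 CPM (−1.62). The others were Arpc1b, an Arp2/3 subunit (−1.57), Tmem141 (−1.53), Birc2, an inhibitor of apoptosis (−1.05), Rras2, a small GTPase (−2.56), and Casr, the calcium-sensing receptor, which had 0.0411 against 20.8 CPM. Mag, a member of this list counted among the 23, had been used in the gate. Its ratio was −0.14, and its −0.12 within 613s is the list's median there. Enpp6 had also been used in the gate. With Enpp6 held under 100 CPM (180 wells), Ctps had −2.09, Arpc1b −1.58 and Plat −2.21.

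**Figure D4:**
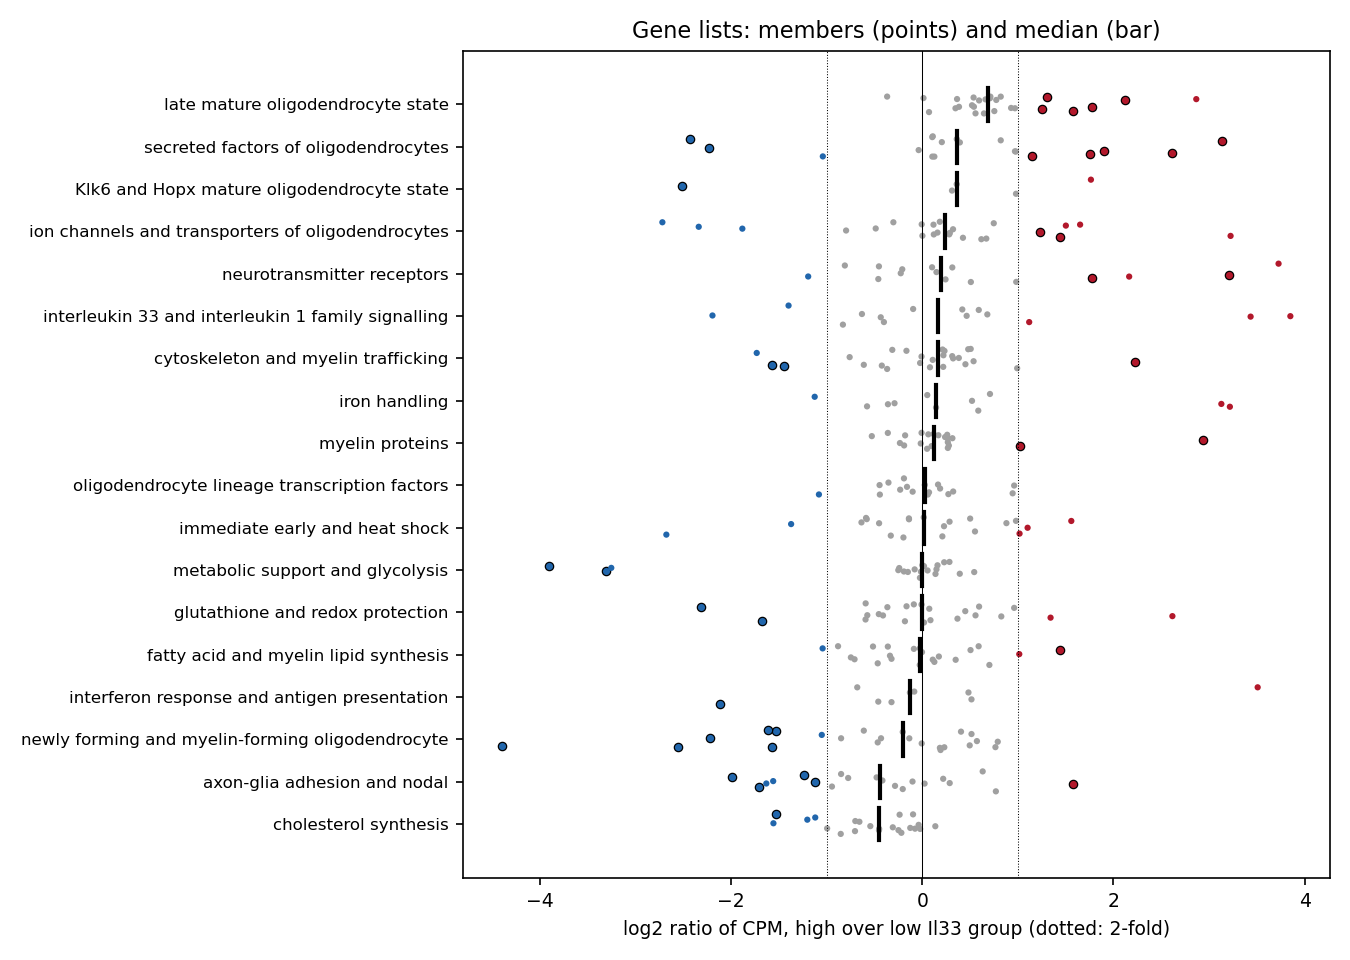
Log2 ratio of the high over the low group for members of the 18 biology lists that reached 10 CPM (points) and the median of each list (bar). Red and blue points passed 2-fold higher and lower, a black edge marks 1.5-fold in every set, and grey points were not called. The late mature list lies furthest to the right, at 0.69, and the cholesterol list furthest to the left, at −0.45.

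Cholesterol synthesis, whose product is a main lipid of myelin, was lower in 4 of 22 genes and higher in none, where 14.8% of all genes were lower, so the share called was near that of all genes. The median was −0.45 (−0.43, −0.31 and −0.68 within the sets), and 21 of 22 ratios were below 0, against 53.6% of all genes. Mvd, mevalonate diphosphate decarboxylase, had a median per well of 3.18 CPM in the high and 190 CPM in the low group and a ratio of −1.53. It was the only gene of the 4 that passed in every set. Nsdhl, a late enzyme of the pathway (−1.20), and Sqle, squalene epoxidase (−1.12), were also lower. Fatty acid and galactolipid genes were divided, with 2 higher and 1 lower of 22, beside 10.8% and 14.8% of all genes. Their median was −0.03. Scd1, stearoyl-CoA desaturase, was higher at 202 against 73.6 CPM (1.44), with 1 high well at 5916 CPM. Acsbg1, an acyl-CoA synthetase, was higher (1.01) and Gal3st1, the sulfotransferase of sulfatide, lower (−1.04), neither in every set. Without 613s, Acsbg1 had −0.0049. Outside that list, Galc, galactosylceramidase, which breaks down the myelin galactolipid, was higher at 62.2 against 8.41 CPM (2.75), with no read in 31 high and 38 low wells and medians of 2.09 and 0 CPM. Cerk, ceramide kinase, was higher at 81.1 against 11.1 CPM (2.77), with no read in 31 and 36 wells, while the middle group had 148 CPM.

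Of 20 adhesion genes of the axon-glia contact at 10 CPM, 6 were lower (4 in every set) and 1 was higher. Among all genes 14.8% were lower, 6.04% lower in every set and 10.8% higher. Ratios below 0 were found in 14 of 20, against 53.6% of all genes, and the median was −0.45. Cntn1, contactin 1, a paranodal adhesion protein, ranged from 0 to 1186 CPM (median 49.4) in the high group, from 0 to 2140 CPM (median 37.8) in the middle group, and from 0 to 2276 CPM (median 489) in the low group. Of the low wells, 55 of 65 exceeded the high median, and the ratio was −1.99. The semaphorins Sema4d and Sema6a, membrane guidance proteins, were lower at 495 against 1077 CPM (−1.12) and 348 against 820 CPM (−1.23). With depth-balanced groups Sema4d had −0.92 and Sema6a −0.94, under the call. Adam22 (−1.71), a receptor of LGI proteins, was lower in every set, while Bcan (−1.56), a matrix proteoglycan, and Dscam (−1.63), an adhesion protein, were not. The gene called higher was Hapln2.

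Cytoskeletal and trafficking genes had 1 member higher and 3 lower of 26, beside 10.8% and 14.8% of all genes, with a median of 0.16. Marcksl1, an actin-linked substrate of protein kinase C, was lower at 212 against 578 CPM (−1.45). Tubb3, a class III beta-tubulin best known from neurons, was higher at 122 against 25.3 CPM (2.22). Neuron markers summed to 457 CPM in the high and 355 CPM in the low group, and their part in Tubb3 was not tested.

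Among secreted factors, 19 reached 10 CPM, of which 5 were higher, all in every set, and 3 lower, 2 of them in every set. Over all genes 10.8% were higher and 2.8% higher in every set, while 14.8% were lower and 6.04% lower in every set. The median of the list was 0.36. Spock1 and Spock3, testican proteoglycans, were higher at 255 against 41.0 CPM (2.61) and 91.5 against 9.51 CPM (3.14). Their levels were uneven: 28 high and 33 low wells had no read of Spock1, and 37 and 51 had none of Spock3. Fgf1, a growth factor (1.75), Serpinb1a, a protease inhibitor (1.90), and Sgk1, a stress-responsive kinase listed with them (1.15), were also higher. Cxcl12, a chemokine, was lower at 15.1 against 85.7 CPM (−2.43), but its medians per well were 5.10 and 8.55 CPM and 1 low well reached 1436 CPM. Bmp1, a procollagen protease, was lower at 39.7 against 189 CPM (−2.23), with a median per well of 0 against 111 CPM. Metrn, a neurotrophic factor, had −1.04.

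The partners of interleukin 33 showed no common direction. Of 25 genes of interleukin 33 and interleukin 1 signalling, 14 reached 10 CPM, with a median of 0.16. Of the 14, 3 were higher and 2 lower, none in every set, beside 10.8% and 14.8% of all genes. Il1rl1, the receptor chain specific to interleukin 33, had no read in the 65 high wells and 0.0891 CPM in the low wells, which 3 wells carried. Il1rap, the shared receptor chain, had a median per well of 291 CPM in the high, 206 CPM in the middle and 262 CPM in the low group, and a ratio of −0.10 (−0.04, 0.85 and −0.64 within the sets). Nfkb1, a subunit of NF-kappa B, was at 24.6 against 0.772 CPM (3.85), but 52 of 65 high wells had no read. Map3k7, the kinase TAK1 (1.12), was also higher, and Irak1 (−2.19) and Ikbkb (−1.40), kinases of the pathway, lower. Irak1 reached 3642 CPM in 1 low well.

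Interferon and antigen-presentation genes were sparse, with 9 of 24 at 10 CPM, 1 higher and 1 lower, beside 10.8% and 14.8% of all genes. H2-K1, a class I histocompatibility chain, was lower at 47.9 against 211 CPM (−2.11) and C4b, a complement component, higher at 66.5 against 4.93 CPM (3.51) with 50 of 65 high wells at 0. Of the 9 ratios 6 were below 0, while H2-D1 (0.48) and B2m (0.51) were above 0 and not called. Immediate early and heat shock genes, which can move with tissue handling, had 3 higher and 2 lower of 21, beside the same shares of all genes. Their median was 0.02. Hspa1a, an inducible chaperone, had 1.02 and Socs3, a feedback inhibitor of cytokine signalling, −2.68, and none of the 5 passed in every set.

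Metabolic genes had medians near 0. Of 20 genes of glycolysis and metabolic support, 3 were lower and none higher, beside 14.8% and 10.8% of all genes. The share lower was thus near that of all genes, and the median was −0.01. Pfkp, the platelet-type phosphofructokinase, was at 11.6 against 124 CPM (−3.31), Pdk1, pyruvate dehydrogenase kinase 1, at 1.48 against 22.6 CPM (−3.25), and Slc16a7, the monocarboxylate carrier MCT2, at 0.328 against 18.8 CPM (−3.90). Glutathione and redox genes had 2 higher and 2 lower of 23, beside 10.8% and 14.8% of all genes. Both lower genes make glutathione: Gss, glutathione synthetase, had a median per well of 7.74 against 387 CPM and a ratio of −1.68, and Gclc, the catalytic subunit of glutamate-cysteine ligase, one of −2.31. Each was lower in every set. Slc7a11, the cystine carrier, was higher at 19.3 against 2.32 CPM (2.62), but its ratio was 0.50 without the highest well of each group. Iron genes had 2 higher and 1 lower of 11, none in every set, beside the same shares of all genes. The higher ones included Hmox1, heme oxygenase 1 (3.13), with 46 of 65 high wells at 0.

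Ion channels and transporters had 5 members higher and 3 lower of 24, beside 10.8% and 14.8% of all genes (2.8% and 6.04% in every set). Their median was 0.23. Only 2 passed in every set, Hcn2, a hyperpolarization-activated channel, at 131 against 47.4 CPM (1.44), and Atp1b3, a beta subunit of the sodium pump, at 1013 against 430 CPM (1.23). In Atp1b3, 60 of 65 high wells exceeded the low median of 398 CPM. Neurotransmitter receptors had 4 higher and 1 lower of 16, beside the same 10.8% and 14.8%. Grm3 is described above, and P2rx7, a channel opened by ATP, was at 18.6 against 1.13 CPM (3.21), yet its ratio was −0.29 with depth-balanced groups. Transcription factors of the lineage had 1 lower of 17 and none higher, beside 14.8% and 10.8% of all genes. Sox8 was at 251 against 532 CPM (−1.08), and at −0.90 when averaged over wells with few and with many genes. Olig2 had −0.35, Sox10 0.19 and Myrf 0.06.

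The 12 highest genes by the naming rule were low to moderate in level. Neat1, the long noncoding RNA of nuclear paraspeckles, ranged from 0 to 1247 CPM (median 29.6) in the high group, from 0 to 1250 CPM (median 3.51) in the middle group, and from 0 to 419 CPM (median 1.54) in the low group. It was at 251 against 19.6 CPM, a ratio of 3.61 with 3.14, 3.68 and 3.98 within the sets, and 2.80 with depth-balanced groups. Gm27533 and Gm27505 lie inside Neat1 (chromosome 19, 5824708 to 5845478, minus strand), share its reads and are not separate genes for counting. The remaining named genes were Sybu, syntabulin, a kinesin adaptor (3.93), Usp31, a deubiquitinase (3.26), Pvt1, a long noncoding RNA (2.82), Zcchc7, an RNA-binding factor of nuclear surveillance (2.61), and the genes Spock3, Pmp22, Cerk, Galc and Spock1 above. Sybu had no read in 39 of 65 high and 51 of 65 low wells.

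The lowest was Prom1. Prom1 ranged from 0 to 191 CPM (median 2.96) in the high group, from 0 to 1536 CPM (median 3.23) in the middle group, and from 0 to 1546 CPM (median 38.8) in the low group. The level of 8.25 against 348 CPM gave a ratio of −5.24, with −6.43, −4.80 and −5.26 within the sets and −5.24 with depth-balanced groups. Only 2 high wells exceeded the low median, while 19 low wells had no read. Tle2, a Groucho-family corepressor (−4.16), Pfkfb4, a regulator of glycolysis (−3.70), Cyp46a1, cholesterol 24-hydroxylase (−3.58), Hibch, a valine catabolism enzyme (−3.68), and Pfkp (−3.31) followed, with Tmem25 (−4.15), Tmem198b (−3.63), 1810041L15Rik (−3.46), Dhx37, a helicase (−3.40), Ippk, an inositol phosphate kinase (−3.36), and St8sia3os (−4.15). St8sia3os is an antisense RNA, and without a stated strand setting its reads cannot be told apart from those of its partner.

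**Figure D5:**
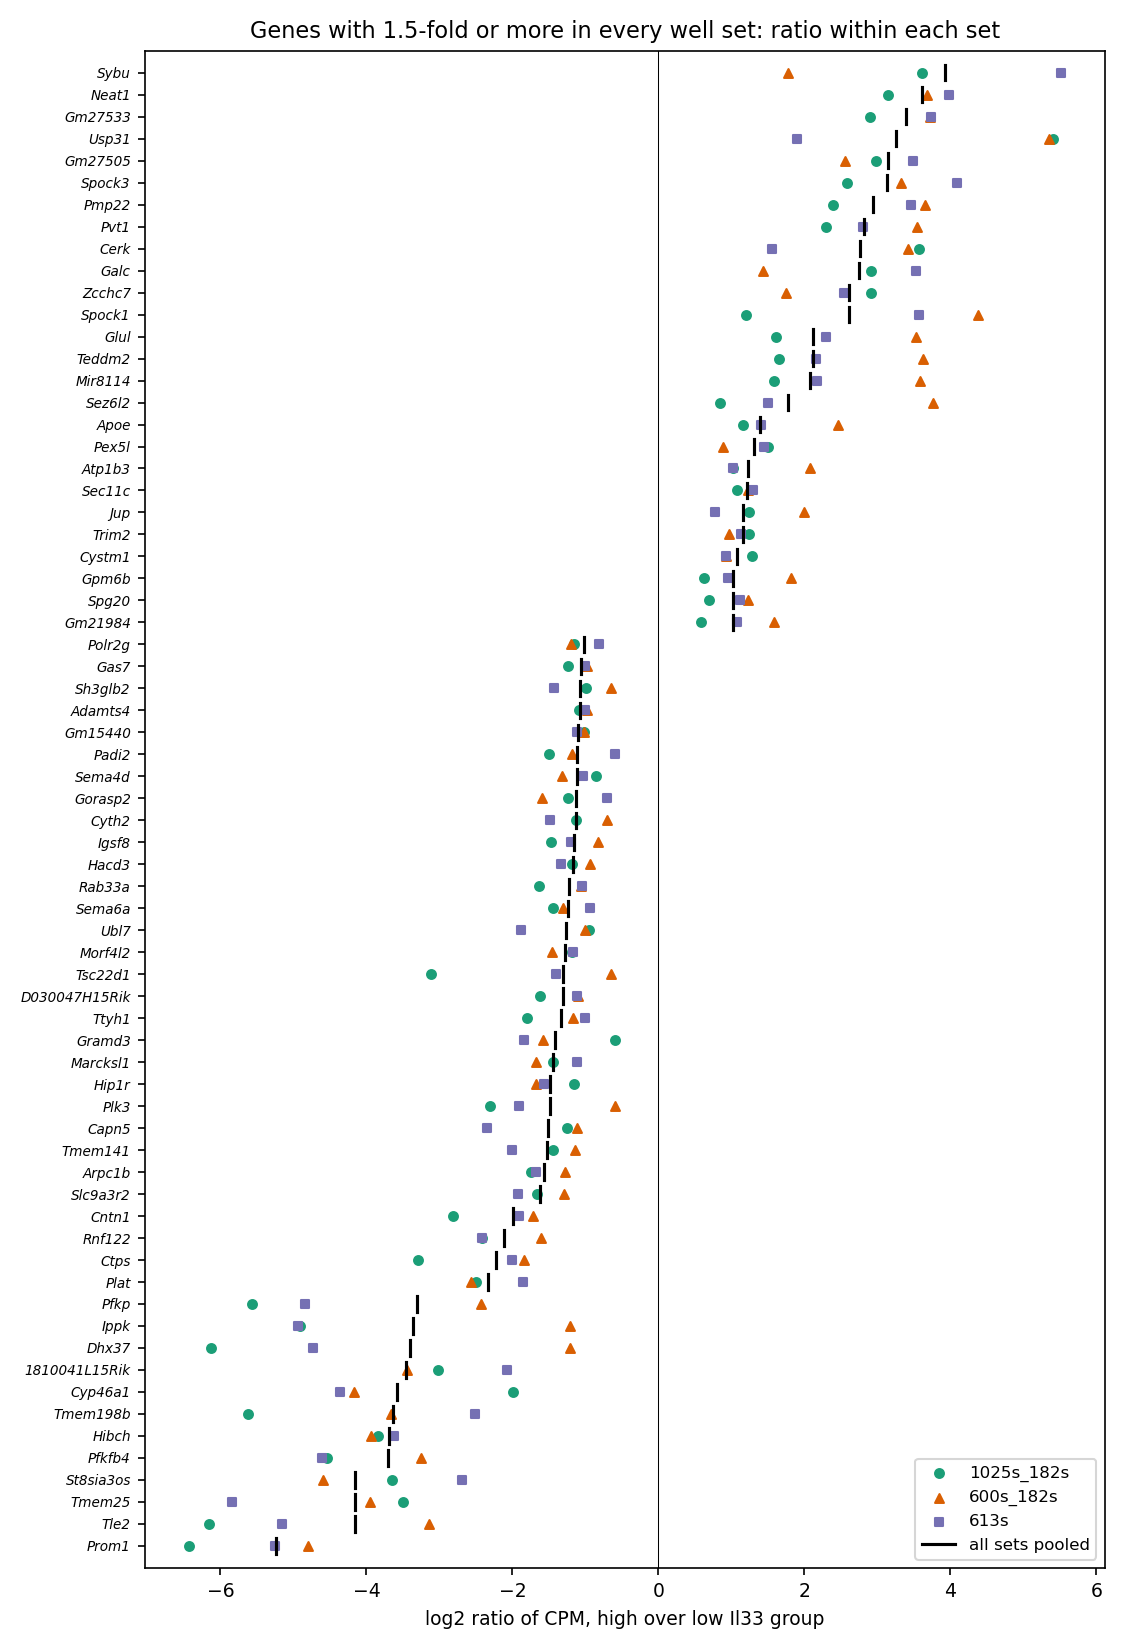
Log2 ratio of the high over the low group within each of the 3 well sets (symbols) and for all sets pooled (black bar) for named genes called in every set. All symbols of a gene lie on its side of 0 by the rule that chose the genes. Prom1 lies between −6.43 and −4.80 and Glul between 1.61 and 3.53.

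Genes seen in most wells are less exposed to single wells. Among 1178 tested genes with reads at equal depth in at least 80% of the wells of either group, a rule added after seeing the data, 14 (1.19%) were higher and 30 (2.55%) lower in every set. A gene could enter through the group where it was high. Low wells held more genes at equal reads (median 4441 against 3400), so the counts of 14 and 30 cannot be weighed against each other. Beside Glul and its overlapping partners, the higher ones were Sez6l2 (1.78), Apoe (1.39), Pex5l (1.31), Atp1b3 (1.23), Sec11c (1.21), Jup (1.16), Trim2 (1.16), Cystm1 (1.07), Gpm6b (1.03), Spg20 (1.02) and Gm21984 (1.02). Averaged over wells with few and with many genes, 8 of them came under the call: Pex5l (0.98), Atp1b3 (0.98), Cystm1 (0.93), Gpm6b (0.91), Trim2 (0.87), Gm21984 (0.87), Jup (0.81) and Spg20 (0.75). Sez6l2 is a seizure-related membrane protein, Jup the junction protein plakoglobin and Trim2 a ubiquitin ligase. Apoe, the lipid carrier apolipoprotein E, ranged from 25.8 to 4509 CPM (median 1508) in the high group, from 14.1 to 4912 CPM (median 1428) in the middle group, and from 25.0 to 4830 CPM (median 423) in the low group. Apoe is also abundant in astrocytes and microglia. Without wells carrying 3 or more markers of another cell type at 200 CPM (170 wells left) its ratio was 1.68. Wells with weaker traces of other cells stayed in, and the part of such RNA in Apoe was not tested. The CPM of Apoe also fell with reads (mean rho −0.40).

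On the lower side Plat, tissue plasminogen activator, ranged from 0 to 1050 CPM (median 38.8) in the high group, from 0 to 3341 CPM (median 26.8) in the middle group, and from 0 to 2976 CPM (median 620) in the low group. It was at 181 against 914 CPM, a ratio of −2.33, with 5 high wells above the low median and a ratio of −2.39 with depth-balanced groups. Within 1025s_182s and 613s the median Plat of the middle group lay near that of the high group, far below that of the low group. Within 600s_182s it lay near that of the low group instead. The highest Plat level of the middle group was 3341 CPM in 600s_182s, 1428 CPM in 613s and 715 CPM in 1025s_182s. In 600s_182s the middle group had a median Il33 of only 11.4 CPM. Slc9a3r2, a PDZ scaffold, was lower at 295 against 911 CPM (−1.62), Gas7, a membrane-bending protein, at 268 against 560 CPM (−1.06), and Adamts4, a proteoglycan-cleaving protease, at 324 against 687 CPM (−1.08). Gas7 had −0.82 with depth-balanced groups and Adamts4 −0.74 when averaged over wells with few and with many genes, both under the call. In Gas7 11 of 65 high wells lay above the low median of 478 CPM.

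Markers of other brain cells were checked in the same wells. Of 10 microglia markers 7 reached 10 CPM, with a median of 2.06. Of the 7, 6 were higher (C1qc in every set) and none lower, beside 10.8% and 14.8% of all genes. The 10 markers summed to 273, 258 and 87.2 CPM in the high, middle and low groups. The median per well, however, was 34.2, 34.5 and 46.8 CPM, and 3, 2 and 0 wells had 3 or more markers at 200 CPM. Within 600s_182s the median ratio was 0.08, and P2ry12, Aif1 and Siglech stayed under 10 CPM. The part of microglial RNA in C4b was not tested beyond the ratio without marked wells, 3.59. Astrocyte and neuron markers had 1 higher and 1 lower each, of 8 and 7 at 10 CPM, beside the same shares of all genes. Precursor markers had none of 5 called, endothelial markers none of 3, ependymal markers none of 3 and fibroblast markers none of 2. Of the mural cell markers only Acta2 reached 10 CPM, and it was lower (−2.18), though not in every set. Mural markers summed to 27.9 CPM in the high and 41.8 CPM in the low group, and fibroblast markers to 69.7 and 59.6 CPM. The highest low well had 767 CPM of mural and 1285 CPM of fibroblast markers, against 304 and 476 CPM among high wells. Blood markers were all under 10 CPM, with summed levels of 7.27 and 6.15 CPM.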

How the data were processed

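Members and gene lists were chosen with earlier results of these data known. The deposited values are whole-number counts of reads per gene that the authors did not normalize, judged from the values. Per the submitters' processing notes, featureCounts (Subread 1.4.6-p5), SAMtools 0.1.18 and TopHat2 2.1.1 were used with builds GRCm38 and mm10. Neither the annotation, the strand setting nor the handling of duplicate reads was given in the sources used here, so overlapping and antisense genes are uncertain. Gated wells had 65938 to 1451280 reads (median 387350), of 46517 genes. No caller of doublets was run, as cells were sorted into wells. Wells were not treated as replicates, and no p-value was made.

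Counts were summed per group and scaled to CPM, with exact Poisson 95% intervals. A gene was called at 2-fold with at least 10 CPM in the higher group. Shares of wells come from thinning to 50000 reads. Coordinates come from GENCODE vM21 (GRCm38), where 9342 of 9752 symbols matched. Named genes are the 12 highest and 12 lowest ratios among those passing in every set with reads in at least 25% of thinned wells of the higher group, the 2 highest and 2 lowest of each of 18 lists, 14 fixed genes and the 5 most like Il33. Other called list members are named beside their counts, after their values were seen. Some list members are not reported here. The self-test on simulated counts was run first. Python 3.11.15, pandas 2.3.3, numpy 2.4.6 and scipy 1.17.1 were used. For 2 of the alternative scalings, factors came from edgeR 4.0.16 (TMM) and DESeq2 1.42.0 (median of ratios) in R 4.3.3. Alternatives covered the summary, filters, gate, scaling, split of wells and left-out well sets.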

Additional observations from a re-analysis of the deposited data

How the results depend on the processing

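No paired analysis was possible because the labels give 1 group and tie no well to an animal, and no result comes from a test. Of 112 named genes called in the comparison, 103 kept their direction under all 22 alternatives, 2 of which were added after seeing the data. A change of the minimum CPM or of the CPM added cannot turn a sign, ties in the opposite order gave the same groups, and most alternatives share wells, so this count is no measure of stability. Taking the mean log2(CPM + 1) of wells gave 107 genes higher and 2004 lower, 5.07% higher among called genes against 42.3%, and moved the median of all genes to −0.45. Leaving out the highest well of each group gave 687 higher and 1699 lower (28.8% higher, median −0.18). A minimum of 50 CPM gave 313 higher and 438 lower with 376 passing in every set, no minimum gave 1855 and 2618, and 10 CPM added gave 584 and 772 with 496 passing. With only 2 sets to pass, 1798, 1953 and 1834 genes passed without 1025s_182s, 600s_182s and 613s, against 862. The mean log2 of wells turned the ion channel (−0.14), cytoskeleton (−0.11) and nuclear long noncoding RNA (−0.16) medians and Nqo1 (−0.0050). Leaving out 613s turned the ion channel median (−0.037), Acsbg1 (−0.0049), Gria1 (0.10) and Scn1a (−0.24). Leaving out 1025s_182s turned Kcnk1 (−0.93), and leaving out 600s_182s turned Marcks (0.55). Enpp6 under 100 CPM turned Enpp6 (0.36) and Marcks (0.12). Splitting each set at the median Il33 rank turned Gadd45b (−0.36) and P2rx7 (−0.27), and depth-balanced groups turned P2rx7 (−0.29). The cause of these changes was not tested. Averaging the sets gave 965 higher and 1825 lower (34.6% higher). Genes near 10 CPM rest on few wells, and the lower CPM of several abundant genes in deeper wells limits what small ratios can show.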
